A study of Arabidopsis thaliana and Zea mays with 36 samples.

Results

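The genes described here are 5 nuclear genes of Arabidopsis thaliana whose proteins protect the photosynthetic membranes from excess light: PSBS (AT1G44575, also NPQ4), the violaxanthin de-epoxidase gene VDE (AT1G08550, also NPQ1), the early light-inducible protein genes ELIP1 (AT3G22840) and ELIP2 (AT4G14690), and the plastid lipocalin gene LCNP (AT3G47860, listed as CHL in RefSeq). They were taken by locus identifier and make up 5 of the 27655 genes in the linear RNA table of the Arabidopsis leaves. All 5 passed the filter on low values, at least 1 TPM (transcript abundance scaled for transcript length and for the library's total) in 2 or more libraries, as did 18938 genes in all. ELIP2 passed it through its WW libraries as well as its DT5 libraries.

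The series compared leaves of Arabidopsis ecotype Col-0, and of maize, under graded water supply. The Arabidopsis groups were well-watered plants (WW) and plants held at drought levels named DT2, DT3, DT4 and DT5, with 2 biological replicates each. Plants were wild type, were grown at 22 °C with 16 h of light at about 85 μmol m-2 s-1 and 8 h of dark, and entered treatment 21 days after planting. Leaves of 4 plants were pooled per sample, RNA of the linear libraries was not digested with RNase R, and reads were 150 bp paired-end. The labels do not give the soil moisture of each level or the hour of harvest, so the levels are ordered here by their number.

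A leaf that absorbs more light than it can use for carbon fixation sheds the surplus as heat, a process called non-photochemical quenching. PSBS senses the acidity of the thylakoid lumen and switches on the fast, reversible component. VDE works in the same acid lumen and turns violaxanthin into zeaxanthin, a carotenoid that strengthens quenching and protects membrane lipids. The product of ABA1, zeaxanthin epoxidase, runs that reaction backwards. LCNP is needed for a slow, sustained form of quenching in the light-harvesting antenna, which SOQ1 holds off and ROQH1 ends. ELIPs are relatives of the light-harvesting proteins that accumulate for a time under strong light, cold or greening and are thought to bind free chlorophyll.

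The 5 genes did not share one course. PSBS and VDE transcripts were lowest at DT5, LCNP was higher at DT4 and DT5 by less than 1 log2 unit, and ELIP1 climbed to the level of the most abundant transcripts of the leaf. ELIP2 lay below its low WW level at DT2, DT3 and DT4 and above it at DT5, but it was not called at DT3 and its DT2 call was unstable. Of the 5 genes 1 was called at DT2 against WW (adjusted p under 0.05 in limma), where 1.88% of all genes tested were called in either direction. At DT3 against WW none of the 5 was called by limma, against a background of 16.8% at the same adjusted threshold. PSBS and ELIP2 came nearest to that threshold, with log2 changes of -0.31 and -0.65. At DT4 against WW 4 of 5 were called against a background of 64.7%, with 2 higher (48.3% of all genes) and 2 lower (16.4%). At DT5 against WW all 5 were called against a background of 71.5%, with 3 higher (43.4% of all genes) and 2 lower (28.1%). The calls at DT4 and DT5 thus came where most genes changed, and the sizes below carry more than the counts.

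**Figure D1:**
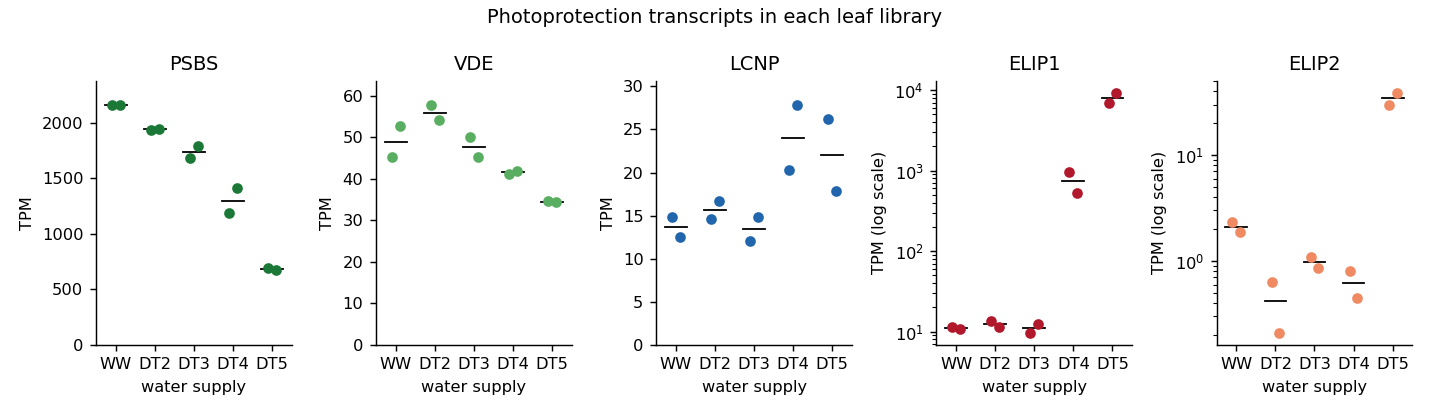
Level of each gene in TPM (vertical axis, logarithmic for ELIP1 and ELIP2) in the 2 libraries of each group, with points for libraries and black bars for group means. PSBS and VDE are lowest at DT5. ELIP1 stays between 9.66 and 13.6 TPM in all libraries of WW, DT2 and DT3, and is far higher at DT4 and DT5.

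Values of whole libraries frame these changes. The TPM of a library add up to the same total, so they keep no read depth. The 2 libraries of each group correlated at 0.977 to 0.988 over genes. The median gene lay 0.12 log2 units above WW at DT2, 0.22 above it at DT3, 0.41 above it at DT4 and 0.26 above it at DT5, so a gene near 0 fell relative to the median gene. At DT5 against WW 8218 genes were called higher and 5328 lower, and 6327 and 6674 once libraries were rescaled by a trimmed mean of M values (trimmed-mean rescaling). At DT4 against WW the split was 9146 higher and 3100 lower, and 4838 and 5161 after rescaling. At DT3 against WW it was 2754 and 420, and 952 and 1089 after rescaling. At DT2 against WW it was 278 and 78, and 158 and 134 after rescaling. Leaving out 1 library at a time moved the last 2 pairs of counts by more than 1.5 times, with 623 to 3259 higher and 89 to 613 lower at DT3 and 29 to 477 higher and 6 to 143 lower at DT2. The shares of 1.88% and 16.8% called are therefore rough.

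Leaf mesophyll markers were present in every group. The 5 markers RBCS1A, RCA, CA1, PSBO1 and LHCB2.1 added up to 1679 to 2148 TPM at DT5, against 38793 to 39114 TPM in WW, and none was at 0 in both libraries of a group. The 4 guard cell markers added up to 11.8 to 15.4 TPM at DT5, where 1 of them was at 0 in both libraries, against 87.2 to 92.5 TPM in WW. The 3 epidermis markers added up to 249 to 258 TPM at DT5, against 350.0 to 375 TPM in WW, and the 2 phloem markers to 312 to 355 TPM, against 113 to 114 TPM in WW. The 3 flower markers, 1 of them at 0 in both libraries at DT4 and at DT5, stayed between 0 and 2.62 TPM in sum over all libraries. The 3 root markers ran from 4.5 to 198 TPM in sum, with CASP1, PYK10 and COBL9 in the list and 1 or 2 of them at 0 in both libraries of each group. In such bulk samples fewer cells of a type and less RNA per cell cannot be told apart, and the part of these shifts in the results below was not tested.

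PSBS, the sensor of lumen acidity, was the most abundant of the 5 transcripts in WW, and its mean was lower at each further drought level. It stood at 2154 and 2157 TPM in WW, 1934 and 1943 TPM at DT2, 1680.2 and 1789 TPM at DT3, 1181 and 1411 TPM at DT4, and 689 and 672 TPM at DT5. No library of a drier group reached a library of the group before it. PSBS fell to 680.3 ± 12.2 TPM at DT5, against 2156 ± 2.54 TPM in WW (SD, n = 2 each), a ratio of the means of 0.316. The log2 change was -1.66 (SE 0.12, limma adjusted p = 8.06e-07).

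PSBS was also lower at DT4 than in WW, with a log2 change of -0.74 (SE 0.12, adjusted p = 3.76e-04). The change at DT2 against WW was -0.15 (95% interval -0.41 to 0.10, adjusted p = 0.539). At DT3 against WW it was -0.31 (95% interval -0.57 to -0.06, adjusted p = 0.0867), and it passed the test after trimmed-mean rescaling at -0.55 (adjusted p = 0.028). Between neighbouring levels PSBS changed by -0.92 at DT5 against DT4 (SE 0.12, adjusted p = 1.63e-04), where 46.3% of genes were called, and by -0.43 at DT4 against DT3 (adjusted p = 0.0113), where 53.6% were called. The call at DT4 against DT3 was lost without DT3 replicate 2 (adjusted p = 0.0722), without the filter on low values (0.0766) and with only the 4 libraries compared (0.0942). At DT3 against DT2 none of the 5 genes was called by limma, and 0.0792% of all genes were called.

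Almost all PSBS signal came from 1 of its 3 listed transcripts. AT1G44575.1.1 held 99.1% and 98.6% of the gene's TPM at DT5, against 99.5% and 99.7% in WW. AT1G44575.2.1 held 0.898% and 0.479% at DT5, against 0.265% and 0.220% in WW. Its share differed among the 5 groups (exact permutation test over 10 libraries, p = 0.00212, adjusted over 6 transcripts p = 0.0127), although its level stayed between 2.46 and 6.19 TPM in all libraries. The share of AT1G44575.1.1 gave an adjusted p of 0.0349 in the same exact permutation test. Leaving out single libraries ended the call for AT1G44575.1.1 in 9 of 10 cases and for AT1G44575.2.1 in 8 of 10.

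The level of PSBS was next set against the antenna it works beside. The 15 genes of the LHCII antenna, LHCB1 to LHCB7, which harvest light for photosystem II, added up to 9985 and 8531 TPM at DT5, against 103027 and 112818 TPM in WW. Of these 15 genes 14 fell at DT5 and none rose, with a median log2 change of -3.80 against 0.26 for all genes. Over all genes tested 28.1% were lower and 43.4% higher there. LHCB2.3, LHCB1.4 and LHCB2.2 fell most, with log2 changes of -8.84, -8.63 and -5.84, although near-identical family members may split reads, which makes each single value uncertain. At DT5 14 of the 15 antenna genes had a lower log2 change than PSBS, and LHCB7 alone had a higher one, 0.26 (adjusted p = 0.165).

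PSBS TPM equalled 6.90% and 7.87% of the summed antenna TPM at DT5, against 2.09% and 1.91% in WW. At DT2 it equalled 1.93% and 2.04%, at DT3 1.83% and 1.83%, and at DT4 2.73% and 2.66%. Both DT5 libraries lay above all others, and the DT4 libraries above those of WW, DT2 and DT3. The within-library ratio differed among the 5 groups (exact permutation test over 10 libraries, p = 0.00529). Adjusted over the 3 ratios with a partner, which were chosen after the values were seen, the p was 0.00952. The smallest p this test can give is 0.00106.

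VDE was lower in the driest leaves, by less than 1 log2 unit. It stood at 45.3 and 52.7 TPM in WW, 57.8 and 54.2 TPM at DT2, 50.2 and 45.3 TPM at DT3, 41.3 and 41.9 TPM at DT4, and 34.6 and 34.4 TPM at DT5. The DT2 libraries were the highest and the DT5 libraries the lowest, and the DT3 libraries overlapped those of WW. VDE fell to 34.5 ± 0.191 TPM at DT5, against 49.0 ± 5.20 TPM in WW (SD, n = 2 each), with a log2 change of -0.49 (SE 0.11, adjusted p = 0.00226).

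At DT4 against WW the change of VDE was -0.23 (95% interval -0.47 to 0.01, adjusted p = 0.0885), and after trimmed-mean rescaling it was -0.66 (adjusted p = 0.00101). At DT2 against WW it was 0.19 (95% interval -0.05 to 0.43, adjusted p = 0.411). No step between neighbouring levels passed the test for VDE on the deposited scale. At DT5 against DT4 it was -0.26 (adjusted p = 0.0716). At DT4 against DT3 it was -0.19 (adjusted p = 0.156), and it passed after trimmed-mean rescaling at -0.39 (adjusted p = 0.0186) and after median centring at -0.35 (adjusted p = 0.0289).

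**Figure D2:**
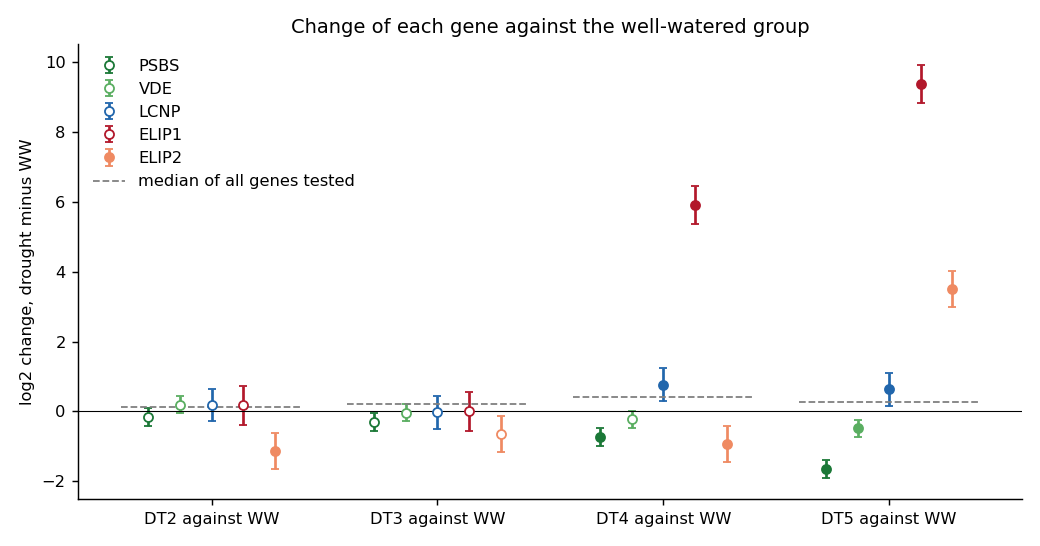
Log2 change of each gene at each drought level minus WW (vertical axis), with bars for the 95% interval of the limma fit, filled points for adjusted p under 0.05 and open points otherwise. The dashed lines mark the median of all genes tested, and ELIP1 stands at 5.91 at DT4 and 9.38 at DT5, far above them.

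VDE was also set against its counterpart ABA1. ABA1 had 350.1 ± 38.8 TPM at DT5, against 484 ± 14.8 TPM in WW (SD, n = 2 each), a log2 change of -0.47 (SE 0.12, adjusted p = 0.00632). The VDE to ABA1 ratio was 0.0917 and 0.107 at DT5, against 0.0957 and 0.107 in WW, with 0.133 and 0.127 at DT2, and 0.128 and 0.101 at DT3. It was 0.0834 and 0.103 at DT4, which held the lowest library, while a DT2 library was the highest. The ratio did not pass the exact permutation test across the 10 libraries of the 5 groups (p = 0.184), and that result does not show that the proportion was constant.

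Other enzymes of the carotenoid pathway, which builds the pigments VDE acts on, were mostly lower. Of 15 such genes 9 fell and 3 rose at DT5 against WW, and 11 fell and 1 rose after trimmed-mean rescaling. Over all genes tested 28.1% were lower and 43.4% higher there, and 35.2% and 33.4% after rescaling. The 15 enzymes had a median log2 change of -0.51 against 0.26 for all genes. CCD4, which cleaves carotenoids, fell to 20.8 ± 6.89 TPM at DT5, against 372 ± 19.1 TPM in WW (SD, n = 2 each). LUT2, the epsilon-cyclase on the way to lutein, fell by 2.25 on the log2 scale (SE 0.12, adjusted p = 1.37e-07). LYC, the beta-cyclase on the way to zeaxanthin, fell by 2.22 (SE 0.14, adjusted p = 4.71e-07). At DT4 against WW 8 of the 15 fell and 2 rose, and 12 fell and 1 rose after rescaling. Over all genes tested 16.4% were lower and 48.3% higher at DT4, and 27.3% and 25.5% after rescaling.

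VDE was the only one of the 5 genes with circular RNAs (circRNAs, closed by back-splicing) in the Arabidopsis circRNA table. It lists 1354 circRNAs from RNase R-digested RNA of the same groups. All 3 of VDE were exonic, lay on the plus strand and shared the start 2707424 on chromosome 1 (TAIR10, as deposited). AT1G08550_C1 spanned chr1:2707424-2707677, AT1G08550_C3 chr1:2707424-2707921 and AT1G08550_C2 chr1:2707424-2708283. Among the 859 host genes listed there, 49 had 3 or more circRNAs, which is 5.7%.

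The deposited circRNA signal of each library came in whole steps, taken here as single back-splice reads, which no source states. AT1G08550_C3 had 10 and 18 steps in WW, 9 and 8 at DT2, and 9 and 11 at DT3. It was listed at 0 in both DT4 libraries and had 12 and 9 steps at DT5. AT1G08550_C1 had 7 and 3 steps in WW, 3 and 7 at DT2, 5 and 2 at DT3, 3 and 4 at DT4, and was listed at 0 in both DT5 libraries. AT1G08550_C2 was listed only at DT3, with 4 and 3 steps. The smallest nonzero value was taken as 2 steps, so a listed 0 does not show that a circRNA was absent. Numbers this low carry a large counting error, and no test was made.

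The 3 linear transcripts of VDE were compared by their share of the gene's TPM. AT1G08550.2.1 held 57.2% and 67.7% of the gene's TPM at DT5, against 70.2% and 64.2% in WW, and AT1G08550.1.1 held 39.0% and 26.5% at DT5, against 26.7% and 29.4% in WW. The widest departure was in 1 DT4 library, where AT1G08550.2.1 held 53.0% and AT1G08550.1.1 43.3%, against 62.9% and 31.0% in the other DT4 library. For both transcripts the spread within DT4 and within DT5 exceeded that within WW. No share of a VDE transcript passed the exact permutation test across groups (lowest p = 0.585 over 10 libraries).

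**Figure D3:**
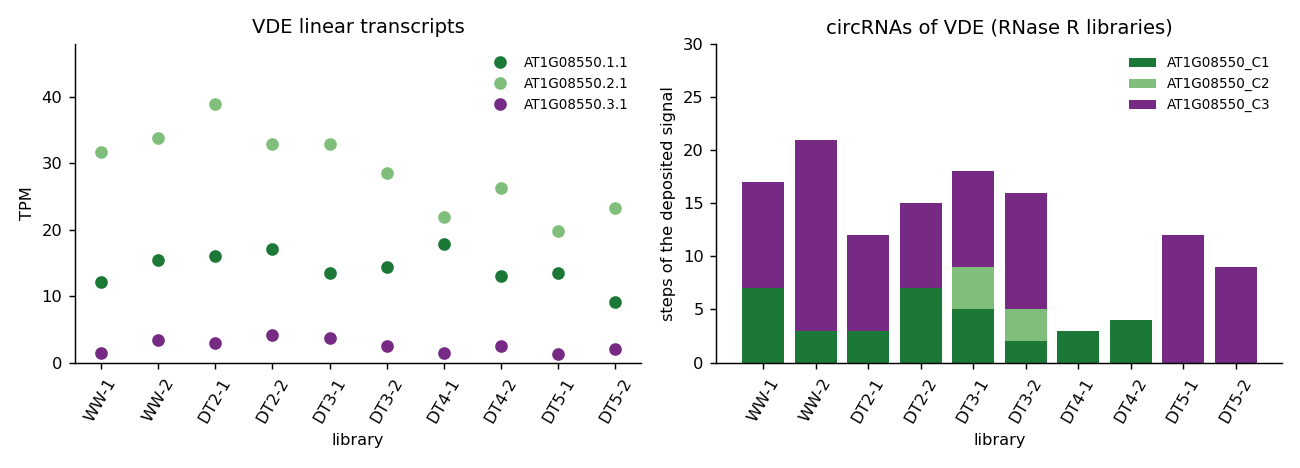
Left, TPM of the 3 linear VDE transcripts in each library, and right, circRNAs of VDE in each RNase R-digested library, in steps of the deposited signal that are not scaled for library size. AT1G08550_C3 is listed at 0 at DT4 and AT1G08550_C1 at DT5, while the order of the linear transcripts is the same in every library.

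LCNP, the lipocalin of sustained quenching, was higher in the 2 driest groups. It stood at 14.8 and 12.5 TPM in WW, 14.6 and 16.7 TPM at DT2, 12.1 and 14.9 TPM at DT3, 20.3 and 27.8 TPM at DT4, and 26.2 and 17.9 TPM at DT5. All 4 libraries of DT4 and DT5 lay above the other 6, and DT4 and DT5 overlapped each other. LCNP averaged 24.1 ± 5.36 TPM at DT4 and 13.7 ± 1.64 TPM in WW (SD, n = 2 each), a log2 change of 0.76 (SE 0.21, adjusted p = 0.0103). It averaged 22.0 ± 5.89 TPM at DT5, a log2 change against WW of 0.63 (SE 0.21, adjusted p = 0.0215).

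Both calls for LCNP depended on the scale and on single libraries. After trimmed-mean rescaling the change was 0.34 at DT4 (adjusted p = 0.175) and 0.34 at DT5 (adjusted p = 0.145), so LCNP was not called relative to the bulk of genes. The DT4 call was lost without WW replicate 2 (adjusted p = 0.0707) or DT4 replicate 2 (0.0761), and the DT5 call without WW replicate 2 (0.121) or DT5 replicate 1 (0.179). The step from DT3 was 0.78 at DT4 against DT3 (SE 0.21, adjusted p = 0.0113), lost without DT3 replicate 1 (0.0826) or DT4 replicate 2 (0.0762). The change at DT5 against DT4 was -0.13 (95% interval -0.60 to 0.34).

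The partners of LCNP in sustained quenching went down instead. SOQ1 fell to 13.7 ± 3.68 TPM at DT5, against 70.4 ± 2.95 TPM in WW (SD, n = 2 each), a log2 change of -2.30 (SE 0.16, adjusted p = 8.62e-07). ROQH1 fell to 32.7 ± 2.50 TPM at DT5, against 56.4 ± 2.31 TPM in WW (SD, n = 2 each), a log2 change of -0.77 (SE 0.10, adjusted p = 5.14e-05). The LCNP to SOQ1 ratio of TPM was 0.217 and 0.173 in WW, 0.226 and 0.263 at DT2, 0.191 and 0.261 at DT3, 0.594 and 0.691 at DT4, and 1.61 and 1.61 at DT5. LCNP thus exceeded SOQ1 in both DT5 libraries and in no other. Taken within each library, the ratio differed among groups (exact permutation test over 10 libraries, p = 0.00635, adjusted over 3 ratios with a partner p = 0.00952). These 3 ratios were chosen after the values were seen. SOQ1 was already called lower, so the test is not independent of that call.

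The temperature-induced lipocalin gene TIL, the other lipocalin looked at, rose to 555 ± 40.3 TPM at DT5, against 175 ± 8.49 TPM in WW (SD, n = 2 each), a log2 change of 1.65 (SE 0.14, adjusted p = 3.40e-06). It was also higher at DT4 than in WW, by 1.18 (SE 0.14, adjusted p = 7.68e-05).

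Among 11 partners of quenching and of the proton and electron flow that controls it, 8 fell and 3 rose at DT5 against WW. After rescaling 8 fell and 2 rose. Over all genes tested 28.1% were lower and 43.4% higher there, and 35.2% and 33.4% after rescaling. The 11 partners had a median log2 change of -0.77 against 0.26 for all genes. PGRL1A, of cyclic electron flow around photosystem I, fell to 79.7 ± 11.7 TPM at DT5, against 535 ± 18.6 TPM in WW (SD, n = 2 each). STN8, a kinase that phosphorylates photosystem II proteins, fell by 1.69 on the log2 scale (SE 0.14, adjusted p = 2.84e-06). The risers, named after their values were seen, were PGRL1B at 1.46, TAP38 at 0.83 and STN7 at 0.46, and STN7 was the one whose call was lost after rescaling.

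ELIP1 showed the largest change of the 5 genes. It stood at 11.3 and 10.7 TPM in WW, 13.6 and 11.3 TPM at DT2, 9.66 and 12.3 TPM at DT3, 968 and 533 TPM at DT4, and 6949 and 9198 TPM at DT5. The DT3 libraries overlapped those of WW and those of DT2, and both DT2 libraries lay slightly above both WW libraries. Each DT4 library was far above all of these and far below each DT5 library. ELIP1 rose to 8073 ± 1590 TPM at DT5, against 10.97 ± 0.410 TPM in WW (SD, n = 2 each), a 736-fold ratio of the means. The log2 change was 9.38 (SE 0.25, adjusted p = 6.30e-09), the 12th highest of 18938 genes.

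The rise of ELIP1 came in 2 steps. At DT4 against DT3 it was 5.92 (SE 0.25, adjusted p = 6.04e-07), also the 12th highest of all genes. At DT5 against DT4 it was 3.48 (SE 0.25, adjusted p = 6.87e-06). Before DT4 there was no detectable change, with 0.17 at DT2 against WW (95% interval -0.39 to 0.72) and -0.01 at DT3 against WW (95% interval -0.56 to 0.55). By level, ELIP1 ranked 5th and 3rd of the 27655 genes in the DT5 libraries, 97th and 213th at DT4, and 10130th and 10223rd in WW. It made up 0.695% and 0.920% of all TPM at DT5, against 0.00113% and 0.00107% in WW.

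The 2 DT4 libraries differed in ELIP1 by a factor of 1.82, the widest gap of this gene within a group. The library with 968 TPM of ELIP1 had 1181 TPM of PSBS and 43248 TPM of antenna genes in sum. The library with 533 TPM had 1411 TPM of PSBS and 52945 TPM of antenna genes. In both measures the first lay on the side of the DT5 libraries, and the cause was not tested.

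The antenna genes gave a second measure for ELIP1, a member of their wider family. ELIP1 TPM equalled 69.6% and 108% of the summed TPM of the 15 antenna genes at DT5, 2.24% and 1.01% at DT4, and 0.0109% and 0.00947% in WW. In 1 DT5 library a single ELIP gene thus exceeded the antenna genes together.

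ELIP2 did not share the rise of ELIP1 at DT4. It stood at 2.34 and 1.86 TPM in WW, 0.63 and 0.21 TPM at DT2, 1.09 and 0.85 TPM at DT3, 0.8 and 0.45 TPM at DT4, and 29.95 and 38.5 TPM at DT5. All 6 libraries of DT2, DT3 and DT4 lay below both WW libraries, and both DT5 libraries far above every other. ELIP2 rose to 34.2 ± 6.07 TPM at DT5, against 2.1 ± 0.339 TPM in WW (SD, n = 2 each), a log2 change of 3.50 (SE 0.23, adjusted p = 6.42e-07). At DT5 against DT4 it rose by 4.44 (SE 0.23, adjusted p = 2.34e-06), the 9th highest of all genes for that step.

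At DT4, where ELIP1 was already 68.4-fold above WW, ELIP2 averaged 0.625 ± 0.248 TPM, against 2.1 ± 0.339 TPM in WW (SD, n = 2 each). The log2 change of -0.94 (SE 0.23, adjusted p = 0.00591) passed the test under all 20 alternatives tried. Its size depends on the pseudocount at such low levels, with -1.64 at a pseudocount of 0.1 and -0.34 at 5. The lower value at DT2 against WW, -1.14 (SE 0.23, adjusted p = 0.0422), lost its call in 14 of 20 alternatives, and at DT3 against WW the change was -0.65 (adjusted p = 0.0823). Trimmed-mean rescaling left the direction of ELIP2 unchanged at DT4 and DT5, at -1.17 and 3.27.

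The ratio of ELIP1 to ELIP2 TPM within a library was 4.81 and 5.74 in WW, 21.6 and 53.95 at DT2, 8.86 and 14.5 at DT3, 1210.0 and 1183 at DT4, and 232 and 239 at DT5. It was highest at DT4. These quotients of TPM rest on ELIP2 levels of about 1 TPM or less at DT2, DT3 and DT4. The ratio tested, from log2(TPM + 1), was 1.88 and 2.03 in WW, 3.17 and 3.35 at DT2, 2.35 and 2.85 at DT3, 9.07 and 8.52 at DT4, and 7.81 and 7.86 at DT5. On that scale the 5 groups differed (exact permutation test over 10 libraries, p = 0.00106, the smallest p this test can give, and 0.00847 adjusted over the 10 pairs of the 5 genes). ELIP1 and ELIP2 are close relatives, so reads could be split between them and the low ELIP2 values are uncertain. ELIP2 equalled 0.0826% and 0.0845% of ELIP1 at DT4 and 0.431% and 0.419% at DT5, and the part of misassigned reads in it was not tested.

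**Figure D4:**
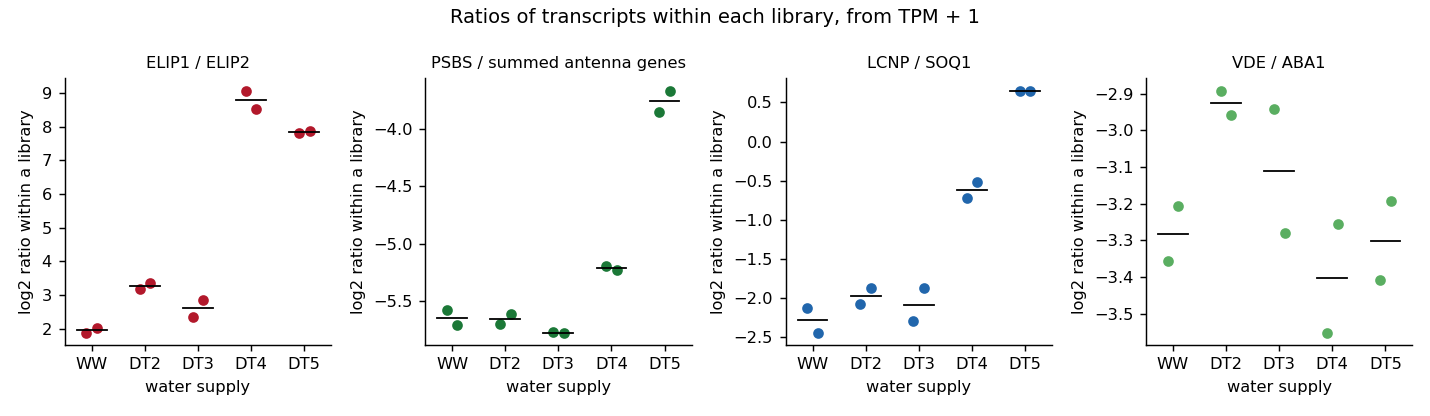
Log2 ratio within each library, from TPM + 1, for ELIP1 to ELIP2, PSBS to the summed antenna genes, LCNP to SOQ1 and VDE to ABA1, with points for libraries and bars for group means. The first 3 ratios are higher in the DT4 and DT5 libraries than in all others. For VDE to ABA1 the DT2 libraries overlap only those of DT3, and the other groups overlap each other.

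The other 9 pairs of the 5 genes also differed in ratio among groups in the exact permutation test, with adjusted p of 0.00847 to 0.0466 over the 10 libraries. The weakest was VDE to LCNP (adjusted p = 0.0466), whose call was lost without any single library (adjusted p up to 0.0825). The 10 ratios share genes and are not independent tests. How many of all gene pairs would pass was not counted, and 71.5% of genes were called by limma at DT5 against WW.

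The one- and two-helix relatives of the ELIPs, which help to assemble photosystems or to make chlorophyll, were mostly lower at DT5. Of 6 such genes 5 fell and 1 rose at DT5 against WW, and after rescaling 5 fell and none rose. Over all genes tested 28.1% were lower and 43.4% higher there, and 35.2% and 33.4% after rescaling. The 6 relatives had a median log2 change of -1.09 against 0.26 for all genes. OHP1, needed to build the photosystem II reaction centre, fell to 34.9 ± 3.90 TPM at DT5, against 314 ± 29.6 TPM in WW (SD, n = 2 each). LIL3:1, which supports chlorophyll synthesis, fell by 2.05 on the log2 scale (SE 0.17, adjusted p = 2.50e-06). OHP2, the partner of OHP1, fell by 1.13 (SE 0.10, adjusted p = 3.71e-06). The riser was SEP2, named after its value was seen, at 0.51 (adjusted p = 0.00762), and 0.21 after rescaling (adjusted p = 0.231).

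**Figure D5:**
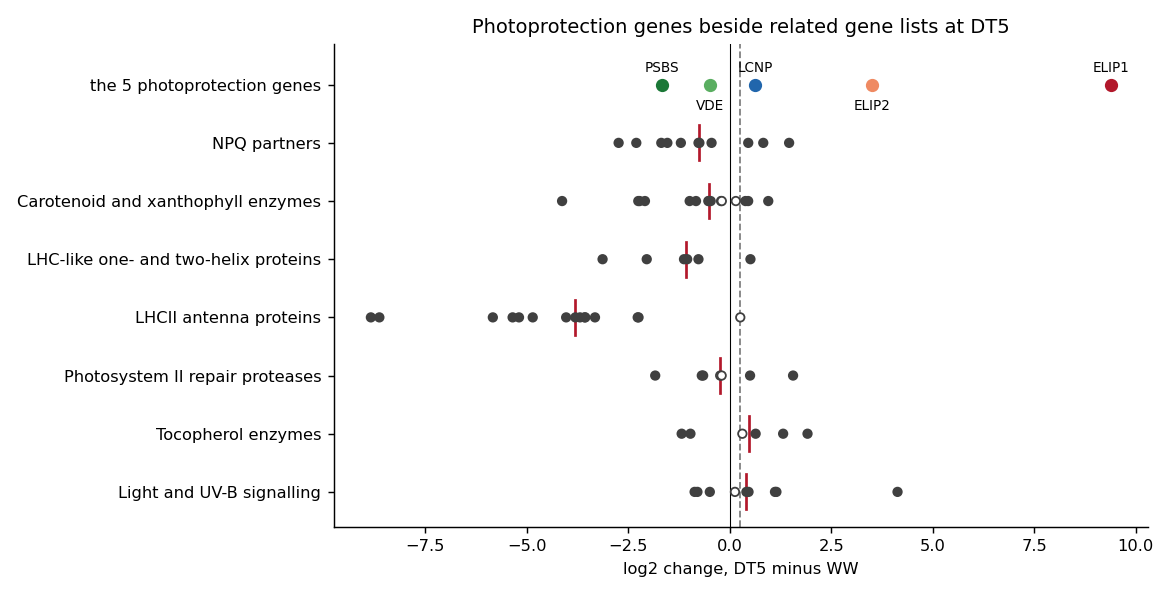
Log2 change at DT5 minus WW (horizontal axis) of the 5 genes in the top row and of the genes of 7 related lists below, with filled points for adjusted p under 0.05, red ticks for list medians and a dashed line for the median of all genes tested. ELIP1 at 9.38 lies beyond every gene of the 7 lists, and PSBS at -1.66 lies above 14 of the 15 antenna genes.

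Genes with the most similar course were looked up by Pearson's r of log2(TPM + 1) over the 10 libraries, which share their groups, so that r describes the course over 5 groups. Most like PSBS were AT4G24930 (r = 0.9982), GUN4 (0.9982), which activates the first enzyme of chlorophyll synthesis, FBA2 (0.9976) and CP12-2 (0.9968) of the Calvin cycle, and AT4G38840 (0.9967). In all 1154 genes had an r above 0.95 with PSBS.

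Most like ELIP1 were EM1 (r = 0.9990), a late embryogenesis abundant protein gene, SWEET4 (0.9987), a sugar transporter gene, CRL1 (0.9987), AT5G66780 (0.9986) and LEA14 (0.9984), and 1912 genes had an r above 0.95. EM1 was listed at 0 in WW and averaged 21.4 TPM at DT5. LEA14 averaged 1940 TPM at DT5, against 70.4 TPM in WW.

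Fewer genes had an r above 0.95 with the other 3, and the usual number for a gene was not counted. Most like ELIP2 were AT4G39360 (r = 0.9845), RAB1C (0.9824), J2 (0.9805), AT1G56060 (0.9771) and AT5G43620 (0.9759), with 73 genes above 0.95. Most like VDE were OXS3 (0.9787), AT5G21940 (0.9770), AT5G14360 (0.9741), ZFP2 (0.9669) and NUDT21 (0.9628), with 12 genes above 0.95. Most like LCNP were OTP82 (0.9757), MUG3 (0.9754), AT2G44260 (0.9730), PAP20 (0.9541) and NRPC1 (0.9507), which were all the genes above 0.95. Some of the genes named lay near the floor. ZFP2 averaged 0.655 TPM in WW and 0 at DT5, OTP82 0.53 and 1.25 TPM, and PAP20 0 and 0.975 TPM. Between the 5 genes r ran from -0.957 for PSBS and ELIP1 to 0.892 for PSBS and VDE, and it was 0.742 for ELIP1 and ELIP2.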

How the data were processed

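For linear RNA the authors deposited a TPM value for every transcript (unit from the file headers), and all libraries had the same total. The submitters' processing notes name RSEM, BWA, edgeR and the build TAIR10, with no version or role. The header line is 1 cell longer than the data lines. Its unit cell was treated as a caption. With it set aside, each of the 10 libraries correlated best with the other of its group. Column numbers could not be matched to the letters of the titles, so libraries were assigned to groups only. For circRNAs the authors deposited a library-scaled signal, with a scale not given in the sources used here. Of the nonzero values 100% were within 0.02 of a whole number of steps, with the smallest nonzero value taken as 2 steps.

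The 48359 transcripts were summed to genes. Genes reaching 1 TPM in 2 libraries entered limma 3.58.1 (R 4.3.3, moderated two-sided test with a mean-variance trend) as log2(TPM + 1), all 10 libraries in one fit, with Benjamini-Hochberg adjustment over all 18938 genes. Fold changes on this scale understate low genes. Within-library ratios and transcript shares were tested by enumerating all groupings of the 10 libraries. Both procedures were tested on simulated data. For limma, changes were set only in genes above a WW level that ELIP2 did not reach, so its low values were not covered. Gene names came from RefSeq (TAIR10.1), which held all 5 genes and the 89 genes of the related lists. From each list the 3 called genes with the largest change at DT5 were named, with SOQ1, ROQH1, ABA1, OHP1, OHP2, HY5 and TIL, and for each of the 5 genes the 5 most correlated. The 5 genes, the lists and the tests were chosen with earlier results of these data known. The study's design text calls the replicates biological, so each group rests on 2 pools of plants. The limma p-values use a spread per gene that is shared by all 10 libraries and moderated over all genes tested. They do not measure the spread within the 2 groups compared alone. Depth per library is unknown. Equal column numbers did not pair libraries: correlations of their deviations from the group means ran from -0.160 to 0.0668. Alternatives covered the pseudocount, filter, scaling (a weighted trimmed mean of M values, computed directly, or the median gene), transcript choice, block and single libraries. Python 3.11.15, pandas 2.3.3 and matplotlib 3.10.9 were used.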

Additional observations from a re-analysis of the deposited data

How the results depend on the processing

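Of 376 tests under alternatives other than leaving out a library, 352 kept their side of the threshold and, for log2 changes, their direction. For ratios across groups only the side of the threshold was compared. The rise of ELIP1 at DT4 and DT5, the fall of PSBS at DT4 and DT5, the fall of VDE at DT5 and both ELIP2 calls at DT4 and DT5 against WW held under all 20 alternatives. ELIP2 at DT2 against WW was the least stable call, with -2.20 at a pseudocount of 0.1 (adjusted p = 0.0527), -0.39 at a pseudocount of 5 (0.136), and -1.14 without a filter (0.126), with the highest transcript only (0.0804) and with the 4 libraries compared (0.105). With the replicate block it was -1.14 (adjusted p = 0.057), and the block changed no other call. Without a filter, LCNP was 0.63 at DT5 against WW (adjusted p = 0.0769) and 0.78 at DT4 against DT3 (0.0526), and PSBS was -0.43 at DT4 against DT3 (0.0766), as with the 4 libraries compared (-0.43, 0.0942). Trimmed-mean rescaling gave PSBS -0.55 at DT3 against WW, VDE -0.66 at DT4 against WW and -0.39 at DT4 against DT3, which then passed, and LCNP 0.34 at DT4 and 0.34 at DT5 against WW, which then did not. Median centring gave PSBS -0.58 and ELIP2 -0.91 at DT3 against WW, VDE -0.65 at DT4 against WW and -0.35 at DT4 against DT3, and LCNP 0.34 at DT4 and 0.41 at DT5 against WW, with the same gains and losses of calls and ELIP2 at DT3 passing too. LCNP at DT5 against DT4, not called, turned to 0.0059 and 0.069 under these 2. The highest transcript alone gave VDE -0.43 at DT4 against WW (adjusted p = 0.0305). The cause of these shifts was not tested beyond the scale itself.

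Leaving out 1 library leaves a group with a single library, assumed to vary like the others. ELIP2 at DT2 against WW then ran from -1.35 to -0.92. At DT3 against WW PSBS ran from -0.36 to -0.27, VDE from -0.14 to 0.071, ELIP1 from -0.17 to 0.15 and LCNP from -0.16 to 0.12. LCNP ran from 0.54 to 0.98 at DT4 against WW, 0.37 to 0.89 at DT5 against WW, 0.56 to 1.0 at DT4 against DT3 and -0.39 to 0.14 at DT5 against DT4. PSBS at DT4 against DT3 ran from -0.55 to -0.30. The span of group means ran from 1.0 to 1.39 for the log2 ratio of VDE to LCNP, and from 0.752 to 1.21 and 0.338 to 0.757 percentage points for the shares of AT1G44575.1.1 and AT1G44575.2.1.

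Over all genes, the alternatives with all libraries gave 0 to 308 higher and 0 to 137 lower calls at DT2 against WW (reported 278 and 78), the 0 coming from the 4 libraries compared. They gave 772 to 2781 and 246 to 1250 at DT3 (reported 2754 and 420), 4578 to 9145 and 2736 to 5406 at DT4 (reported 9146 and 3100), 0 to 11 and 0 to 3 at DT3 against DT2 (reported 11 and 4), and 2070 to 4590 and 3672 to 5878 at DT5 against DT4 (reported 3021 and 5747). Leaving out 1 library moved the counts at DT2 against WW by over 1.5 times for each library of WW, DT2, DT3 and DT4, and those at DT3 against WW for each library of WW and DT3. At DT3 against DT2 they ran from 0 to 27 higher and 1 to 6 lower. No depth is known, so no limit of detection can be given for ELIP2 below 1 TPM.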

Other observations

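Genes of light and UV-B signalling, some of which act upstream of the ELIPs, were called in shares near those of all genes. Of 9 such genes 5 rose and 3 fell at DT5 against WW, and 3 rose and 3 fell after trimmed-mean rescaling. Of all genes 43.4% were higher and 28.1% lower there, and 33.4% and 35.2% after rescaling. The list's median log2 change was 0.41 against 0.26 for all genes. CHS, the entry enzyme of flavonoid synthesis, rose to 3713 ± 10.3 TPM at DT5, against 212 ± 26.9 TPM in WW (SD, n = 2 each), and RUP2 and UVR8 rose by 1.15 and 1.11 on the log2 scale. HY5, a transcription factor of the light response, changed by 0.41 at DT5 against WW (SE 0.12, limma adjusted p = 0.0118) and by 0.18 after median centring (adjusted p = 0.215).

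The proteases that repair photosystem II and the enzymes of tocopherol synthesis are given beside the same shares of all genes, and no test set either list against them. Of 7 proteases 2 rose and 3 fell at DT5 against WW, and 1 rose and 5 fell after rescaling, with a median log2 change of -0.24 against 0.26 for all genes. FTSH8 rose to 384 ± 9.69 TPM at DT5, against 130 ± 5.56 TPM in WW (SD, n = 2 each), while VAR2 of the same protease complex fell by 0.69 and DEG5 fell by 1.84 on the log2 scale. Of 6 tocopherol enzymes 3 rose and 2 fell, and 2 rose and 2 fell after rescaling, with a median log2 change of 0.47. PDS1 and VTE2, at the start of the pathway, rose by 1.92 and 1.32, and VTE5 fell by 1.19.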
